A study of Mus musculus with 15 samples.

Results

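Voltage-gated sodium and calcium channels are the membrane proteins that carry the fast inward currents of neurons, and their genes were read here in the striatum of mouse pups. The genes were chosen by symbol: the sodium channel alpha and beta subunits (Scn genes ending in a or b), the calcium channel pores (Cacna1), and the alpha2delta (Cacna2d), beta (Cacnb) and gamma (Cacng) calcium channel subunits. This gave 34 of the 15569 genes measured. The 32 described here, over which all counts of channel genes run, are 6 sodium alpha, 3 sodium beta, 8 calcium alpha1, 4 alpha2delta, 4 calcium beta and 7 gamma genes.

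RNA sequencing was performed on total RNA of the striatum of C57Bl/6J pups at postnatal day 14. Pregnant mice had inhaled aerosols, and the question was whether the transcriptome of the offspring's striatum differed afterwards. The 15 libraries form 4 groups: 4 from untreated pups, 3 after paraquat (a redox-cycling herbicide), 4 after titanium dioxide (TiO2) and 4 after a mix of paraquat and titanium dioxide, called the mixture below. The labels name no other allele, agent, dose, sex, dam or litter, and do not say whether libraries came from separate pups, so each p-value is set against the spread among these libraries alone, and that spread may be technical.

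Sodium channel alpha subunits form the pore that starts and carries the action potential, and beta subunits are small partners that set its gating and its place in the membrane. Calcium channel alpha1 subunits form the calcium pore, beta subunits bind it from inside the cell, and alpha2delta subunits sit outside and raise the number of channels at the surface, including at nerve terminals. Most genes named gamma encode TARPs, proteins that bind AMPA-type glutamate receptors and control their trafficking and gating, so this family reaches from the channel to the excitatory synapse. The striatum is built mainly of inhibitory medium spiny neurons, which fire when cortical and thalamic glutamate input is strong.

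Values are read counts per gene that the authors divided by a factor for each library, called normalised read counts here. Libraries held 8690925 to 14207513 reads, and the deepest was paraquat 3. No channel gene was at 0 in any library: the lowest value was 6.24, for Cacna2d4, while 3 reads correspond to 1.98 to 3.25 normalised counts. Differences are on the log2(normalised read count + 1) scale with their standard error (SE), and a gene was called when its Benjamini-Hochberg adjusted p over all 15556 genes tested was under 0.05 in limma. All 32 channel genes passed the filter on low values. Gene positions are those of GENCODE M21 on GRCm38. The 3 comparisons of an exposure with untreated pups share the same 4 untreated libraries, so their values are given side by side and are not independent of each other.

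Markers of the striatum were present in every library, with Drd1 at 2594 to 3193 and Ppp1r1b at 7955 to 12262 normalised counts. The summed levels of some marker lists differed between the groups. Those of astrocyte, microglia, endothelial, cholinergic and choroid plexus markers overlapped the untreated range in every exposure. The summed level of 6 oligodendrocyte markers was 37546 to 56216 in untreated, 82762 to 95964 in paraquat, 51707 to 81394 in TiO2 and 44801 to 77881 in mixture libraries, and 5 of the 6 were called higher with paraquat. The summed level of 9 medium spiny neuron markers was 64015 to 71170 in untreated, 56086 to 64183 in paraquat, 62424 to 66231 in TiO2 and 55789 to 65955 in mixture libraries; 3 of the 9 (Bcl11b, Penk and Tac1) were called lower with paraquat and 1 (Tac1) with TiO2. The sum of 7 cortical glutamatergic markers was 556 to 1284 in untreated, 1337 to 5035 in paraquat, 904 to 2445 in TiO2 and 2106 to 4028 in mixture libraries, with 1 of the 7 (Cux2) called, and no marker of these lists was at 0 in any group. Kcnc1 and Kcnc2, of 3 fast-spiking interneuron markers measured, were called higher with paraquat, where the summed level of the 3 was 1439 to 1767 against 1003 to 1076 in untreated, 1091 to 1406 in TiO2 and 1223 to 1326 in mixture libraries. Kcnc2 was also called higher with the mixture. The part of these cell markers in the channel results was not tested, and in bulk tissue fewer cells of a type and less RNA per cell cannot be told apart.

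With paraquat, 4 channel genes rose (Cacna2d2, Cacnb1, Cacng2 and Cacng7) and 1 fell (Cacna2d3), which is 5 of 32 where 10.4% of all genes tested were called (6.34% higher and 4.06% lower). With TiO2, 6 rose (Cacnb1, Cacng2, Cacng3, Cacng4, Cacng7 and Cacng8) and 1 fell (Cacna2d1), which is 7 of 32 where 6.4% of all genes were called (4.3% higher and 2.1% lower). With the mixture, limma called 0 of 32, where it called 1.19% of all genes. The median log2 difference of the 32 genes was 0.04 with paraquat, 0.03 with TiO2 and -0.00 with the mixture, against medians of -0.01 over all genes tested in each of the 3. The genes called were auxiliary subunits, but the difference between pores and other subunits was not tested, and alternatives called pores too. With paraquat, Scn2a was called in edgeR, voom, DESeq2, with TMM scaling, with the total without mitochondrial genes and with a mean of at least 50, Cacna1e, Scn2a and Scn3a with the length trend removed, and Cacna1h with the GC trend removed. Cacna1e was called with TiO2 with the length trend removed. Leaving out control 2 called Cacna1e, Cacna1g, Scn2a and Scn3a with paraquat and Scn3a with TiO2, and leaving out paraquat 2 called Cacna1e with paraquat.

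At an unadjusted p under 0.05, limma found 15 channel genes with paraquat (26.6% of all genes tested), 12 with TiO2 (23.3%) and 7 with the mixture (12.2%). Of the other tests on reads recovered from the values, edgeR called 8 channel genes with paraquat, 7 with TiO2 and 0 with the mixture. DESeq2 called 9, 7 and 0. Over all genes, edgeR called 1813, 996 and 166 in these comparisons, and DESeq2 called 1966, 1183 and 300. The count with paraquat was 2 without paraquat 3, 3 without paraquat 1, and 9 without paraquat 2 or without control 2. The count with TiO2 was 2 without TiO2 3, 3 without TiO2 2 and 3 without control 1. Over all genes, limma called 1617 with paraquat, 665 without paraquat 3, 736 without paraquat 1, 1595 without paraquat 2 and 1754 without control 2. With TiO2 it called 996 of all genes, 467 without TiO2 3, 536 without TiO2 2 and 502 without control 1. The plot of all log2 differences by role shows which subunits carried the calls.

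**Figure D1:**
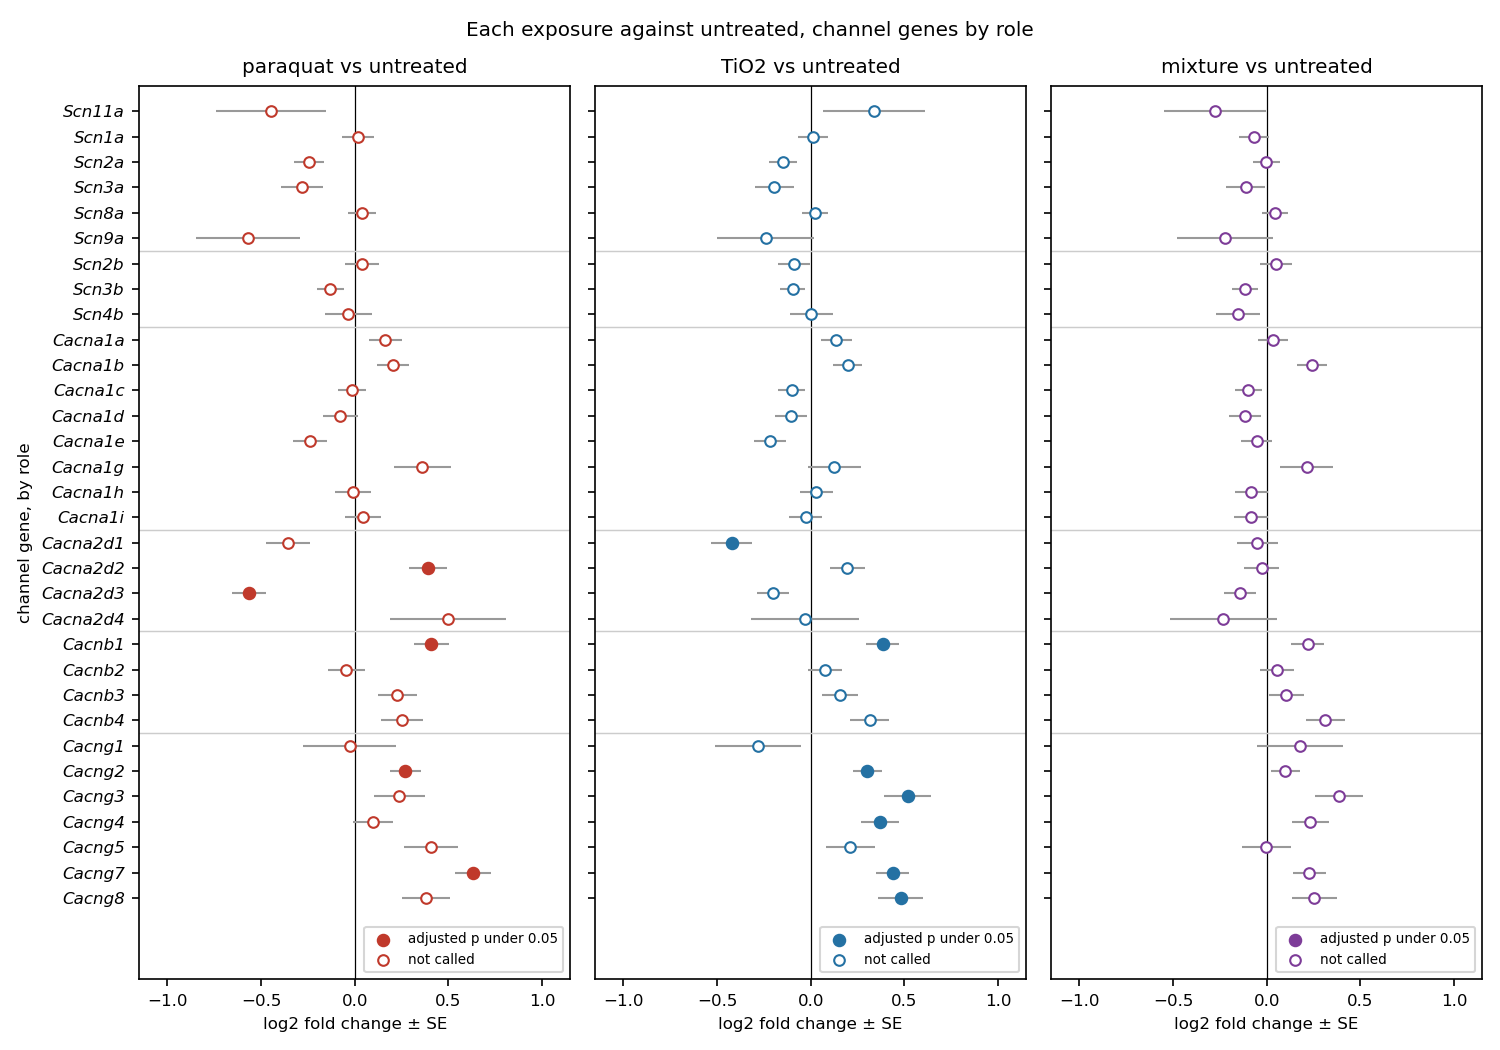
Log2 fold change with its standard error (x axis) of each of the 32 channel genes (y axis, ordered by role, grey lines between roles) for paraquat, TiO2 and the mixture against untreated pups; filled points have an adjusted p under 0.05. Filled points lie in the auxiliary subunits (5 with paraquat, 7 with TiO2, 0 with the mixture), and no sodium alpha or calcium alpha1 gene has one.

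GC content differed between the channel genes called higher and lower. The longest transcripts of the genes called higher had a median GC content of 57.0% with paraquat and 56.4% with TiO2, against 51.5% for the 32 channel genes and 49.2% for all genes; the genes called lower had 49.1% (Cacna2d3, paraquat) and 40.7% (Cacna2d1, TiO2). Over all genes tested the medians were 55.2% for those called higher and 44.3% for those called lower with paraquat, and 54.3% and 43.5% with TiO2. With a GC trend removed from each library, 4 channel genes were called with paraquat, of which 2 (Cacna2d3 and Cacng7) were also called without that step, and 5 with TiO2, of which 4 (Cacna2d1, Cacnb1, Cacng2 and Cacng7) were. The genes added were Cacna1h (lower, paraquat) and Cacnb4 (higher, both exposures). Over all genes, 1221 were called with paraquat and 889 with TiO2 after the GC trend was removed, against 1617 and 996 before. Each gene's own value after this step is given below where its call ended.

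Cacng7 and Cacna2d3 had the smallest adjusted p among the channel genes called higher and lower with paraquat, and both calls held in all 21 alternatives run. The 250 bases before the RefSeq start of each are shown because these 2 genes moved in opposite directions in the same libraries. The sequences are from RefSeq on GRCm38.p6, 5′ to 3′ on the gene's strand, with matches to the GC box GGGCGG on either strand in capitals. The first lies at chr7:3332575-3332824 on the plus strand and the second at chr14:29721865-29722114 on the minus strand.
Cacng7: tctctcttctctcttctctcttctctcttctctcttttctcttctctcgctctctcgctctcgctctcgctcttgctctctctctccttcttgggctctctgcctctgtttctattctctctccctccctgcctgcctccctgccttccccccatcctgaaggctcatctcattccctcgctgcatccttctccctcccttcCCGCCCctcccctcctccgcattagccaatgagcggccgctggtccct
Cacna2d3: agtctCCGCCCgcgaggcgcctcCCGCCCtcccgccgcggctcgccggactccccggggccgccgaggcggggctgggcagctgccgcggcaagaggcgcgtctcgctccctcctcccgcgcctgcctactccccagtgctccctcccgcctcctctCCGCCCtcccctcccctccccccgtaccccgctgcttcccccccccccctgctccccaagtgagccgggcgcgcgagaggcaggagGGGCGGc
The Cacng7 window held 1 GC box at 58.0% GC, and that of Cacna2d3 held 4 at 80.0% GC. RefSeq windows were matched for 24 of the 32 channel genes, 35 windows in all. A GC box was in 12 of these 35 (34.3%) and in 32.7% of all 32851 windows of the same length. The cAMP response core TGACGTCA was in 0 of 35 windows and in 1.55% of all, TGACG, which is part of it, in 5 and in 17.8%, the TATA motif TATAAA in 2 and in 12.4%, and the EGR motif GCGNGGGCG, which can overlap a GC box, in 5 and in 4.7%, all on both strands. These matches describe letters only.

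The sodium channel pores showed no call against untreated pups in limma: 0 of 6 in each exposure, with 2 of 6 at an unadjusted p under 0.05 with paraquat (Scn2a and Scn3a) and 0 with TiO2 or the mixture. Levels per kilobase were divided by the length of the merged exons of all annotated transcripts of a gene. On this scale Scn8a, the main pore of mature axon initial segments and nodes, was highest of the 6. It was at 214 ± 9.27 normalised counts (SD over 15 libraries) and lay between 199 and 234. Scn2a, the pore of young and unmyelinated axons, followed at 133 ± 11.9, then Scn3a, an embryonic form, at 75.3, and Scn1a, the pore of fast-spiking interneurons, at 50.7. Scn8a differed from untreated by 0.04 ± 0.07 with paraquat, 0.02 ± 0.07 with TiO2 and 0.04 ± 0.07 with the mixture. Scn1a differed by 0.02 ± 0.09, 0.01 ± 0.08 and -0.07 ± 0.08.

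Scn2a (chr2:65620771-65767447) read 1824, 1723, 1771 and 1890 normalised counts in untreated, 1448, 1547 and 1566 in paraquat, 1692, 1546, 1470 and 1809 in TiO2, and 1774, 1853, 1677 and 1902 in mixture libraries. All 3 paraquat libraries were below all 4 untreated ones, while TiO2 and mixture libraries overlapped them. The log2 difference from untreated was -0.25 ± 0.08 with paraquat (limma adjusted p = 0.0506), -0.15 ± 0.07 with TiO2 (0.228) and -0.00 ± 0.07 with the mixture (0.996). The first of these was past the threshold in edgeR, voom and DESeq2. Per kilobase, Scn8a over Scn2a was 1.43 to 1.59 in untreated, 1.75 to 1.83 in paraquat, 1.51 to 1.90 in TiO2 and 1.36 to 1.78 in mixture libraries. Scn3a differed from untreated by -0.28 ± 0.11 with paraquat (adjusted p = 0.108), -0.19 ± 0.10 with TiO2 and -0.11 ± 0.10 with the mixture. Scn9a and Scn11a, which are known from sensory neurons, were at 11.7 and 2.56 per kilobase, and their differences had standard errors of 0.26 to 0.29.

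Of the sodium beta subunits, limma called 0 of 3 in each exposure, with 0 at an unadjusted p under 0.05, and edgeR, DESeq2 and voom called 0. Scn4b, the beta subunit that is abundant in medium spiny neurons and takes part in resurgent current, was at 758 per kilobase, second of all 32 genes. It read 3111 to 4908 in untreated, 3450 to 4324 in paraquat, 3443 to 4130 in TiO2 and 2858 to 3929 in mixture libraries, and these ranges overlapped throughout. Its log2 difference was -0.04 ± 0.13 with paraquat, 0.00 ± 0.12 with TiO2 and -0.15 ± 0.12 with the mixture. Scn3b and Scn2b, at 427 and 240 per kilobase, differed by -0.13 ± 0.07 and 0.04 ± 0.09 with paraquat and by -0.10 ± 0.07 and -0.09 ± 0.09 with TiO2.

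No calcium channel pore was called against untreated pups in limma (0 of 8 in each exposure). At an unadjusted p under 0.05 there were 3 of 8 with paraquat (Cacna1b, Cacna1e and Cacna1g), 2 with TiO2 (Cacna1b and Cacna1e) and 1 with the mixture (Cacna1b). Per kilobase the highest were Cacna1e, the R-type pore, at 165, Cacna1h, a T-type pore, at 96.5, Cacna1a, the P/Q-type pore of nerve terminals, at 85.2, and Cacna1c, an L-type pore, at 69.3. Cacna1c differed from untreated by -0.01 ± 0.08 with paraquat, -0.10 ± 0.07 with TiO2 and -0.10 ± 0.07 with the mixture. Cacna1a differed by 0.16 ± 0.09, 0.14 ± 0.08 and 0.03 ± 0.08. Cacna1b, the N-type pore of nerve terminals, was at 577 ± 58.9 (SD, n = 4) normalised counts in untreated, 664 ± 13.7 (n = 3) in paraquat, 661 ± 44.9 (n = 4) in TiO2 and 682 ± 28.2 (n = 4) in mixture libraries, and its log2 differences of 0.21, 0.20 and 0.24 did not pass the test. Every paraquat and mixture library was above every untreated one for this gene, the lowest paraquat library only just, and the TiO2 range overlapped.

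Cacna1e (chr1:154390731-154884501) read 4630, 4042, 4687 and 4689 in untreated, 4003, 4334 and 3207 in paraquat, 4134, 3512, 4106 and 3793 in TiO2, and 4184, 4271, 4287 and 4623 in mixture libraries. The untreated range overlapped that of every exposed group because control 2 was low. Its log2 difference from untreated was -0.24 ± 0.09 with paraquat (limma adjusted p = 0.0939), -0.22 ± 0.08 with TiO2 (0.123) and -0.05 ± 0.08 with the mixture (0.866). The remaining pores, Cacna1d, Cacna1i, Cacna1h and Cacna1g, differed by between -0.11 and 0.36 over the 3 exposures.

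The alpha2delta subunits moved in different directions. With paraquat, Cacna2d2 rose and Cacna2d3 fell, and with TiO2 Cacna2d1 fell. These proteins are known as the binding site of gabapentinoid drugs (Cacna2d1 and Cacna2d2) and as organisers of synapses.

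Cacna2d3 (chr14:28904943-29721864) read 2137, 2574, 2026 and 2090 in untreated, 1442, 1411 and 1605 in paraquat, 1998, 2000, 1618 and 2051 in TiO2, and 1950, 2085, 1933 and 1987 in mixture libraries. The 3 paraquat libraries were the lowest of the 15, below TiO2 3, and the TiO2 and mixture libraries overlapped the untreated ones. On the log2 scale the difference was -0.57 ± 0.09 with paraquat (limma adjusted p = 0.000607), -0.20 ± 0.09 with TiO2 (0.147) and -0.14 ± 0.09 with the mixture (0.531). Across the 21 alternatives the paraquat value stayed between -0.62 and -0.49, with an adjusted p of at most 0.00498.

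Cacna2d2 (chr9:107399612-107529343) read 448, 480, 460 and 503 in untreated, 673, 510 and 692 in paraquat, 545, 587, 552 and 486 in TiO2, and 434, 498, 478 and 446 in mixture libraries. The paraquat libraries were above all untreated ones, paraquat 2 only just, and in TiO2 1 library, TiO2 4, lay within the untreated range. The log2 difference was 0.39 ± 0.10 with paraquat (limma adjusted p = 0.0156), 0.20 ± 0.09 with TiO2 (0.196) and -0.03 ± 0.09 with the mixture (0.945). The paraquat call ended with the GC trend removed (0.24, adjusted p = 0.0955), without paraquat 1 (0.0904) and without paraquat 3 (0.0917).

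Cacna2d1 (chr5:15934691-16374511) read 1697, 1539, 1759 and 1934 in untreated, 1140, 1562 and 1381 in paraquat, 1444, 1226, 1014 and 1541 in TiO2, and 1676, 1715, 1573 and 1707 in mixture libraries. In each single exposure 1 library overlapped the lowest untreated one, and the mixture libraries lay within the untreated range. Against untreated, the log2 difference was -0.35 ± 0.12 with paraquat (limma adjusted p = 0.0561), -0.42 ± 0.11 with TiO2 (0.0226) and -0.05 ± 0.11 with the mixture (0.91). The TiO2 call ended without control 1 or 4, or without TiO2 2 or 3 (adjusted p up to 0.0929), and was kept with the GC trend removed at -0.30. Cacna2d4, at 1.22 per kilobase the lowest of the 32 genes, differed by 0.50 ± 0.31 with paraquat, -0.03 ± 0.29 with TiO2 and -0.23 ± 0.29 with the mixture.

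As shares of the summed alpha2delta signal per kilobase, which describe the same libraries, Cacna2d3 made up 52.1 to 61.4% in untreated and 45.8 to 48.1% in paraquat libraries. Cacna2d2 made up 12.6 to 13.8% in untreated, 18.2 to 24.6% in paraquat, 14.5 to 20.5% in TiO2 and 13.2 to 14.7% in mixture libraries. The ratio of Cacna2d3 to Cacna2d2 per kilobase was 3.78 to 4.89 in untreated, 1.95 to 2.52 in paraquat, 2.67 to 3.84 in TiO2 and 3.69 to 4.10 in mixture libraries. The 3 paraquat libraries had the lowest ratios of the 15, with no overlap with any other group. This ratio sets a gene called lower with paraquat over a gene called higher with it. Its separation therefore follows from those calls and is not separate support for them.

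**Figure D2:**
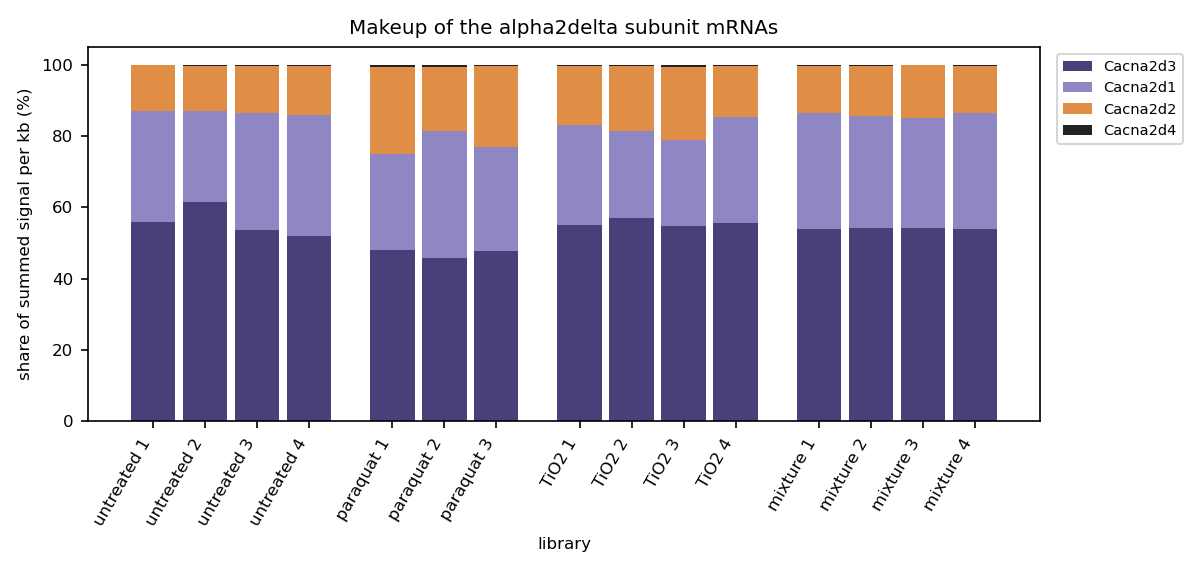
Share of the summed alpha2delta signal per kilobase of exon (y axis, percent) taken by Cacna2d3, Cacna2d1, Cacna2d2 and Cacna2d4 in each of the 15 libraries (x axis, 1 stacked bar per library). The Cacna2d2 share is 18.2 to 24.6% in the 3 paraquat libraries and 12.6 to 13.8% in the 4 untreated ones.

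Among the calcium channel beta subunits, Cacnb1 rose with paraquat and with TiO2. Cacnb1 (chr11:98001508-98023034), best known from skeletal muscle and also made in neurons, read 1068, 1161, 1089 and 1086 in untreated, 1531, 1302 and 1569 in paraquat, 1480, 1396, 1599 and 1295 in TiO2, and 1270, 1265, 1508 and 1115 in mixture libraries. Every paraquat and TiO2 library was above every untreated one, and 1 mixture library, mixture 4, lay within the untreated range. Its log2 difference from untreated was 0.41 ± 0.10 with paraquat (limma adjusted p = 0.00903), 0.39 ± 0.09 with TiO2 (0.0102) and 0.22 ± 0.09 with the mixture (0.28). The TiO2 call held in all 22 alternatives, with an adjusted p of at most 0.0492. The paraquat call ended with the GC trend removed (0.18, adjusted p = 0.13) and without paraquat 3 (0.0521).

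Cacnb4, the beta subunit with the highest level at 303 per kilobase, read 1893 to 2770 in untreated, 2453 to 3117 in paraquat, 2595 to 3153 in TiO2 and 2653 to 3300 in mixture libraries. The untreated range overlapped all 3 others. Its log2 difference was 0.25 ± 0.11 with paraquat (limma adjusted p = 0.153), 0.32 ± 0.10 with TiO2 (0.0684) and 0.31 ± 0.10 with the mixture (0.173). Cacnb3 differed by 0.23 ± 0.10, 0.16 ± 0.10 and 0.11 ± 0.10, and Cacnb2 by -0.05 ± 0.10, 0.08 ± 0.09 and 0.06 ± 0.09.

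Of the gamma genes, 2 of 7 rose with paraquat, where 6.34% of all genes did, and 5 of 7 with TiO2, where 4.3% did, and none fell. The median log2 difference of the 7 was 0.27 with paraquat, 0.37 with TiO2 and 0.23 with the mixture, against -0.01 over all genes tested in each. With TiO2 the 5 were Cacng2, Cacng3, Cacng4 and Cacng8, the type I TARPs that promote surface delivery of AMPA receptors, and Cacng7, a type II TARP. By level, Cacng4 was first of the 32 genes at 1214 per kilobase, and Cacng3 followed Scn4b at 653.

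Cacng7 (chr7:3332955-3368221) read 658, 717, 743 and 775 in untreated, 1153, 992 and 1227 in paraquat, 960, 1025, 1013 and 922 in TiO2, and 973, 805, 885 and 734 in mixture libraries. Every paraquat and TiO2 library was above every untreated one, the paraquat libraries were above the mixture ones, and mixture 4 fell within the untreated range. On the log2 scale the difference was 0.63 ± 0.10 with paraquat (limma adjusted p = 0.000309), 0.44 ± 0.09 with TiO2 (0.00412) and 0.23 ± 0.09 with the mixture (0.26). The paraquat call held in 21 of 21 alternatives and the TiO2 call in 22 of 22, and the smallest values, 0.43 and 0.30, came with the GC trend removed. Per kilobase, Cacng7 over Cacng4 was 0.266 to 0.291 in untreated, 0.344 to 0.453 in paraquat, 0.251 to 0.321 in TiO2 and 0.268 to 0.305 in mixture libraries.

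Cacng8 (chr7:3390683-3415648), whose gene follows Cacng7 on the same strand after 22461 bases, read 132, 170, 173 and 175 in untreated, 221, 181 and 234 in paraquat, 202, 208, 264 and 233 in TiO2, and 209, 167, 215 and 184 in mixture libraries. Paraquat and TiO2 libraries were all above the untreated ones, and mixture 2 fell within their range. The log2 difference was 0.38 ± 0.13 with paraquat (limma adjusted p = 0.0558), 0.48 ± 0.12 with TiO2 (0.0162) and 0.25 ± 0.12 with the mixture (0.378). The TiO2 call ended with the GC trend removed (0.26, adjusted p = 0.145; the GC content is 65.1%) and on leaving out control 1 (0.0798) or TiO2 3 (0.0725).

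Cacng2 (chr15:77991748-78120028), the gene of stargazin, read 893, 1006, 1082 and 1050 in untreated, 1242, 1111 and 1292 in paraquat, 1250, 1255, 1265 and 1192 in TiO2, and 1003, 1131, 1174 and 1012 in mixture libraries. Both single exposures lay above the untreated range and the mixture overlapped it. Against untreated, the log2 difference was 0.27 ± 0.08 with paraquat (limma adjusted p = 0.0421), 0.30 ± 0.08 with TiO2 (0.0207) and 0.10 ± 0.08 with the mixture (0.663). The paraquat call was lost in 9 of 21 alternatives, among them GC (0.23, adjusted p = 0.0557), length (0.0511), a fit of these 2 groups alone (0.0848), and leaving out control 1, 2 or 4 or paraquat 1 or 3 (up to 0.157). The TiO2 call was lost without control 1 (0.094), TiO2 2 (0.0595) or TiO2 3 (0.0531). An antisense gene, A730060N03Rik, shares 323 exonic bases with Cacng2. Strand use in counting is not given in the sources used here, so their reads cannot be told apart there. A730060N03Rik itself read 19.1 to 46.6. The same limit holds for other channel genes whose exons overlap annotated genes that were not measured. Among them are Cacnb1 (80 bases), Cacna2d2 (82), Cacnb4 (1170) and, on the same strand, Cacng8 (91).

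Cacng3 (chr7:122670492-122769393) read 1271, 1381, 1608 and 1604 in untreated, 1513, 1441 and 2336 in paraquat, 1958, 2103, 1996 and 2313 in TiO2, and 2005, 1954, 2131 and 1580 in mixture libraries. All TiO2 libraries were above the untreated range, whereas 1 paraquat library, paraquat 3, and 3 mixture libraries were. Its log2 difference from untreated was 0.52 ± 0.13 with TiO2 (limma adjusted p = 0.0188), 0.24 ± 0.14 with paraquat (0.279) and 0.39 ± 0.13 with the mixture (0.176).

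Cacng4 (chr11:107732357-107794557) read 3440, 3615, 4095 and 4067 in untreated, 3724, 3440 and 5228 in paraquat, 4797, 4839, 4623 and 5378 in TiO2, and 4674, 4404, 4782 and 4015 in mixture libraries. The pattern by library was that of Cacng3: TiO2 above the untreated range, paraquat 3 apart from paraquat 1 and 2, and mixture 4 within the untreated range. On the log2 scale the difference was 0.37 ± 0.10 with TiO2 (limma adjusted p = 0.027), 0.10 ± 0.11 with paraquat (0.602) and 0.23 ± 0.10 with the mixture (0.323). The TiO2 calls of Cacng3 and Cacng4 ended with the GC trend removed (0.42, adjusted p = 0.104, and 0.28, adjusted p = 0.144) and on leaving out control 1 (0.0708 and 0.101), TiO2 2 (0.0514 and 0.0647) or TiO2 3 (0.062 and 0.0515). That of Cacng4 also ended when TiO2 4 was left out (0.0635).

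Cacng5 (chr11:107874605-107915055), a type II TARP, read 132, 92.9, 152 and 126 in untreated, 176, 135 and 188 in paraquat, 137, 132, 151 and 155 in TiO2, and 116, 119, 134 and 125 in mixture libraries. All 3 exposed groups overlapped the untreated range. The log2 difference was 0.41 ± 0.14 with paraquat (limma adjusted p = 0.065), 0.21 ± 0.13 with TiO2 (0.345) and -0.00 ± 0.13 with the mixture (0.997). Cacng1, the gamma subunit of skeletal muscle channels, was at 18.7 per kilobase and differed by -0.03 ± 0.25, -0.28 ± 0.23 and 0.18 ± 0.23.

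**Figure D3:**
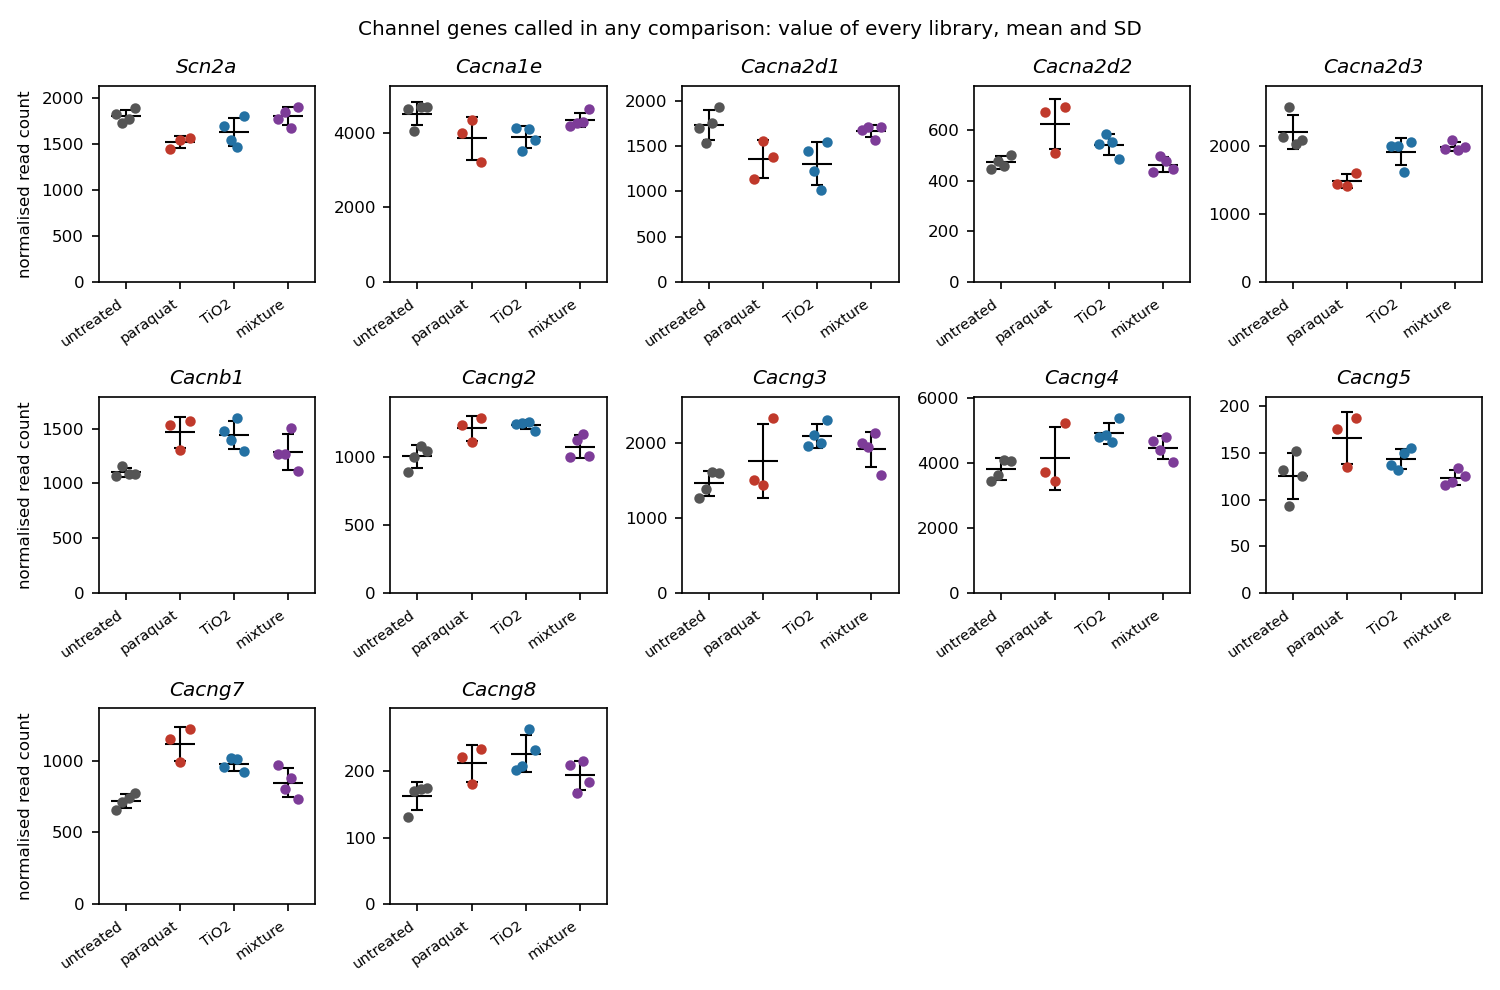
Normalised read counts (y axes, each from 0) of the 12 channel genes called in any comparison, by group (x axis); points are libraries, long bars the group mean and whiskers the SD. Cacng7 reads 992 to 1227 in the paraquat libraries against 658 to 775 in untreated ones, and Cacna2d3 reads 1411 to 1605 against 2026 to 2574.

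The mixture's log2 difference from untreated pups was nearer to 0 than that of both single exposures in 15 of 32 channel genes. This was not counted over all genes, so it is not shown to be particular to the channel genes. Over all genes, limma also called fewer with the mixture (185) than with paraquat (1617) or TiO2 (996). At an unadjusted p under 0.05 limma found 7 channel genes with the mixture, all higher: Cacna1b, Cacnb1, Cacnb4, Cacng3, Cacng4, Cacng7 and Cacng8. Over all genes tested 12.2% had such a p. Of the 185 genes called with the mixture at the adjusted threshold, 174 were higher and 11 lower, so that comparison leaned upward in general. DESeq2 found 6 at that level and voom and edgeR 7 each, with 0 called by any of the 3. With the GC trend removed Cacnb4 was called with the mixture, and in a fit of the 2 groups alone Cacng3 was.

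The departure from additivity was tested as an interaction, the mixture's log2 difference from untreated minus the sum of the 2 single exposures' differences. The interaction was called for 10 of 32 channel genes where 11.8% of all genes tested were called. For 6 it was below 0 (6.36% of all genes): Cacna2d2, Cacnb1, Cacng2, Cacng5, Cacng7 and Cacng8. For 4 it was above 0 (5.41% of all genes): Scn2a, Cacna1e, Cacna2d1 and Cacna2d3. At an unadjusted p under 0.05 there were 12 of 32, against 28.2% of all genes. The interaction uses the same untreated, paraquat and TiO2 libraries as the comparisons above and adds only the mixture libraries to them.

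For Cacng7 the single exposures summed to 1.07 and the mixture differed by 0.23, an interaction of -0.85 ± 0.13 (limma adjusted p = 0.000523). For Cacna2d3 the sum was -0.77 and the mixture -0.14, an interaction of 0.62 ± 0.13 (0.00382). For Cacna2d1 the sum was -0.77 and the mixture -0.05, an interaction of 0.72 ± 0.16 (0.00732). In all 10 genes the mixture's difference was nearer to 0 than the sum.

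The other 7 interactions lay between 0.39 and 0.62 in size. Cacna2d2 had -0.62 ± 0.14 (limma adjusted p = 0.00631), Cacnb1 -0.58 ± 0.13 (0.00732) and Cacng2 -0.47 ± 0.12 (0.011). Scn2a had 0.39 ± 0.11 (0.0236), Cacng8 -0.61 ± 0.17 (0.0268), Cacna1e 0.40 ± 0.12 (0.0383) and Cacng5 -0.62 ± 0.19 (0.0383). The count was 6 without paraquat 1 and 6 without mixture 4, where all genes called went from 1832 to 883 and 1098. The interactions of Cacna2d1, Cacna2d3, Cacng2 and Cacng7 held in all 28 alternatives. Those of Scn2a, Cacna1e, Cacnb1, Cacng5 and Cacng8 ended with the GC trend removed (Cacng8 -0.15, adjusted p = 0.588; Cacnb1 -0.25, 0.121; Scn2a 0.22, 0.1; Cacna1e 0.36, 0.0613; Cacng5 -0.54, 0.0839). That of Cacna2d2 ended with the replicate block and the GC trend removed together (-0.40, 0.0561). That of Scn2a also ended without control 4, paraquat 1, TiO2 2 or mixture 4 (adjusted p up to 0.071), and that of Cacng8 without control 1, paraquat 1 or 3, TiO2 3, or mixture 2 or 4 (up to 0.0755). That of Cacna1e ended without control 1, 3 or 4, paraquat 1 or 3, TiO2 2, or mixture 2 or 4 (up to 0.132). That of Cacng5 ended without control 1, 2 or 4, paraquat 1 or 3, TiO2 3 or 4, or mixture 1, 2 or 4 (up to 0.11). With the replicate number as a block, 9 interactions were called, Cacna1e being lost (0.0511).

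**Figure D4:**
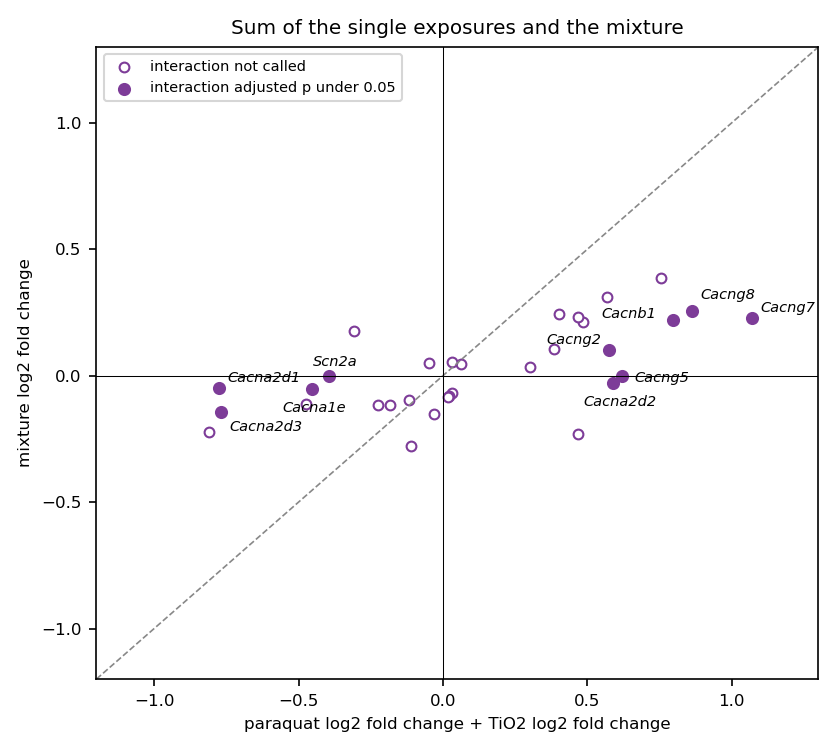
Mixture log2 fold change (y axis) against the sum of the paraquat and TiO2 log2 fold changes (x axis) for the 32 channel genes; the dashed line marks equality and filled points have an interaction adjusted p under 0.05. The 10 filled points, selected for their distance from the line, lie nearer to the horizontal axis than to it, from Cacng7 (sum 1.07, mixture 0.23) to Cacna2d1 (sum -0.77, mixture -0.05).

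Direct comparisons between the exposures called no channel gene in limma. For the mixture against paraquat, limma called 0 of 32 (0.00643% of all genes, 1 gene). At an unadjusted p under 0.05 it found 7 (14.4% of all genes). There edgeR and voom called 0 channel genes, and 1 and 4 over all genes. DESeq2 called 3 (Cacna2d3 higher, Cacna2d2 and Cacng7 lower), and 138 over all genes. The limma values were 0.42 ± 0.09 for Cacna2d3 (adjusted p = 0.103), -0.42 ± 0.10 for Cacna2d2 (0.122) and -0.41 ± 0.10 for Cacng7 (0.122). For the mixture against TiO2, limma called 0 of 32 and 0.0% of all genes, with 5 channel genes at an unadjusted p under 0.05 (11.4% of all genes), and edgeR, voom and DESeq2 called 0. For paraquat against TiO2, limma again called 0 of 32 and 0.0% of all genes, with 3 channel genes at an unadjusted p under 0.05 (6.41% of all genes), and the other 3 tools called 0. The smallest p there was that of Cacna2d3, with a difference of -0.36 ± 0.09 (adjusted p = 0.358), so the 2 single exposures are not shown to differ in any channel gene, nor shown to act alike.

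Levels of the 32 genes spanned from 1214 per kilobase for Cacng4 to 1.22 for Cacna2d4. After Cacng4 came Scn4b (758), Cacng3 (653), Scn3b (427), Cacng7 (371), Cacnb4 (303) and Cacnb1 (290), all of them auxiliary subunits, and the highest pores were Scn8a (214) and Cacna1e (165). The order depends on the length used. Merged exons of Scn8a span 15766 bases against 11436 for its longest transcript. For Cacna1e these lengths are 25228 and 14921, and for Cacna2d3 8720 and 3695. An order by longest transcript was not computed, so pores are not shown to rank below auxiliary subunits in general. Neighbours in this order overlapped in their range over the 15 libraries, with the exception of Scn9a (6.91 to 18.5) and Scn11a (1.71 to 4.40). Cacng4 itself ranged from 962 to 1504 and Scn4b from 574 to 985.

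**Figure D5:**
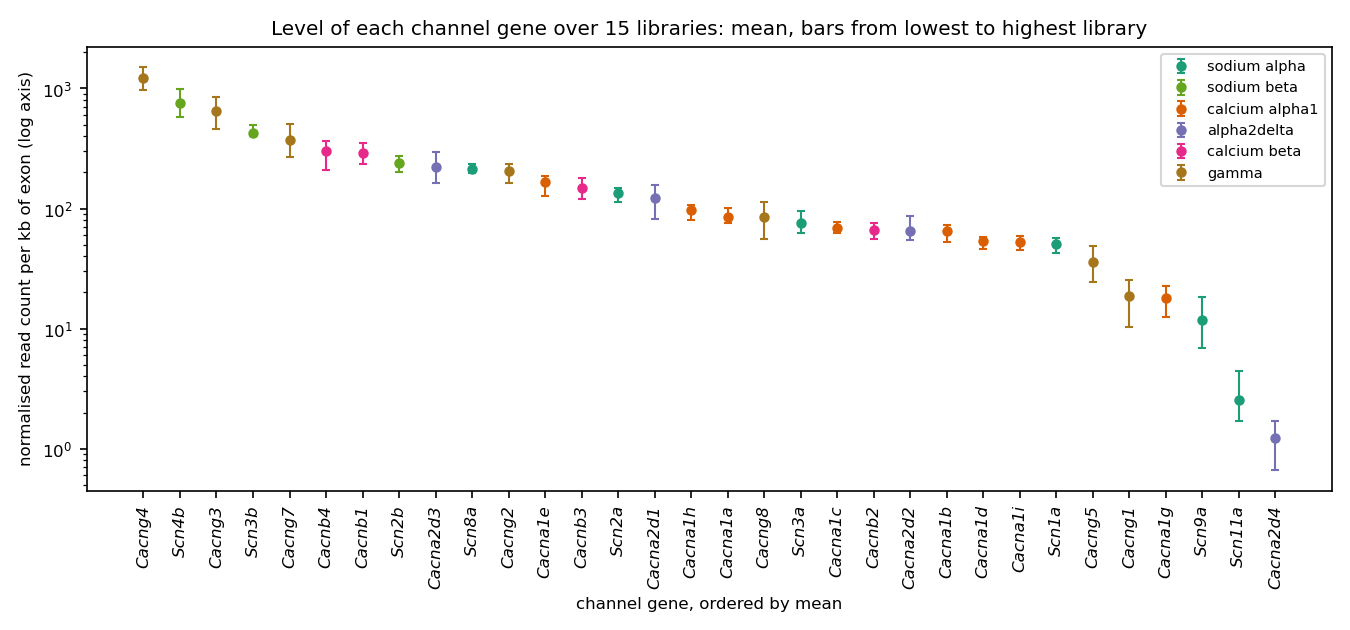
Normalised read count per kilobase of exon (y axis, log scale) of the 32 channel genes (x axis, ordered by mean, coloured by role); points are means over 15 libraries and bars run from the lowest to the highest library. The length is that of the merged exons of all annotated transcripts, and the order depends on it. By this measure auxiliary subunits take the first 9 places, from Cacng4 at 1214 to Cacna2d3 at 221, and Scn8a at 214 is the highest pore.

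A list of 49 partner genes, mostly for proteins that bind, anchor or modulate these channels, was read, and 45 of them were tested. It also held partners of AMPA receptors, such as Cnih3, and Nalcn, which codes for another channel. With paraquat 4 of the 45 rose and 3 fell, with TiO2 3 rose, and with the mixture limma called 0, with 7 at an unadjusted p under 0.05 and 1 called by DESeq2. The 7 called with paraquat were 15.6% of the list, where 10.4% of all genes were called, and the 3 with TiO2 were 6.67%, near the 6.4% of all genes. The list's median log2 difference was 0.01, 0.02 and 0.06. Stac2, an adaptor of L-type calcium channels, rose with paraquat by 0.87 ± 0.17 (limma adjusted p = 0.00353) and with TiO2 by 0.55 ± 0.16 (0.0415): it read 82.9, 75.3, 94.7 and 60.9 in untreated, 118, 129 and 189 in paraquat, 111, 122, 131 and 94.5 in TiO2 and 120, 108, 158 and 104 in mixture libraries. All paraquat and mixture libraries exceeded the untreated ones, and TiO2 4 did not. With the mixture Stac2 differed by 0.63 ± 0.16 (0.0519), which did not pass the test. The TiO2 call of Stac2 was lost in 9 of 22 alternatives, edgeR (adjusted p = 0.0532), GC (0.123) and leaving out control 1, 2 or 4 or TiO2 1, 2 or 3 (up to 0.148) among them.

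With paraquat, Nfasc, the adhesion protein that gathers sodium channels at initial segments and nodes, rose by 0.45 ± 0.11 (limma adjusted p = 0.0146), and Camk2a, a kinase that regulates both channel families, by 0.32 ± 0.08 (0.0197). Akap5, which anchors kinases at L-type channels, fell by 0.29 on the log2 scale (0.0201), and Calm2, a calmodulin gene, fell by 0.44 (0.0292). Nfasc read 3028 to 3601 in untreated and 4403 to 4814 in paraquat libraries, and Calm2 read 3143 to 3537 and 2312 to 2895, without overlap in either. The Nfasc call ended without paraquat 3 (adjusted p = 0.0625), and the GC trend's removal ended those of Akap5 (0.0573) and Calm2 (0.0556). With TiO2, Cnih3, an AMPA receptor partner, rose by 0.51 ± 0.11 (0.00927) and Fgf14, which binds sodium channels at the initial segment, by 0.34 ± 0.08 (0.0157). Cnih3 read 127 to 151 in untreated and 167 to 212 in TiO2 libraries, and Fgf14 read 550 to 615 and 632 to 785. The Fgf14 call ended without TiO2 2 (0.0625), that of Camk2a without control 1 or paraquat 1 or 3 (up to 0.074), that of Akap5 without control 3 or paraquat 1 (up to 0.12), and that of Calm2 without control 1, 2 or 4 or paraquat 1 or 3 (up to 0.127). A list of 15 genes of the axon initial segment and node shares Nfasc and other genes with the one above. In limma 5 of the 15 rose with paraquat, where 6.34% of all genes did, and 3 with TiO2, where 4.3% did. With the mixture 0 were called, where 1.19% of all genes were. Calls of this list under the alternatives were not counted.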

How the data were processed

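Striatal RNA of 15 libraries was extracted with NucleoSpin RNA II, made into libraries by Lexogen's SENSE total RNA protocol and run on a NextSeq500, per the labels' protocols. The submitters' processing notes name the build mm10, DESeq2 (listed as version 2.1.8.3) and Bowtie2 (listed as version 2.3.2.2). For the counter, its strand setting and the annotation, the sources used here give nothing. The deposited signal is, for each gene, a read count that the authors divided by a factor for each library: all values were whole multiples, within 0.001 of a read, of 1 step per library (0.658 to 1.08), and in 4 libraries the step is within 1% of 1. Libraries held 8690925 to 14207513 reads on 15569 genes, of which 16.2 to 21.8% were mitochondrial. This share was 19.7 to 21.8% in untreated and 16.8 to 18.5% in paraquat libraries, without overlap. It was 16.2 to 20.6% in TiO2 and 19.1 to 21.0% in mixture libraries. With the total taken without mitochondrial genes, 7 channel genes were called with paraquat and 7 with TiO2. The part of this share in the results was not tested.

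Each library was grouped by its treatment label. limma 3.58.1 (trend, robust, in R 4.3.3) was fitted to log2(signal + 1) of all 15 libraries, with 15556 genes kept by filterByExpr of edgeR 4.0.16 and Benjamini-Hochberg adjustment over all of them. The same script was also run on simulated counts. These held no GC trend and no difference in mitochondrial share between groups, so that run does not bear on calls that depend on them. Alternatives were edgeR, voom and DESeq2 1.42.0 on the recovered reads, other scalings, pseudocounts of 0.5 and 5, filters, GC and length trends, a replicate block, fits of the groups compared alone, and leaving out each library. edgeR on the recovered reads called 1813 genes with paraquat, 996 with TiO2, 166 with the mixture and 1969 for the interaction, against 1617, 996, 185 and 1832 in limma.

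Channel genes called in any comparison are named with every library's value, the rest by role with up to 4 of the highest levels, and of the partner list up to 5 called genes with the smallest p per exposure. Cacna1b, Cacnb3, Cacng1, Cacna2d4 and other channel genes outside this rule are named after their values were seen. The channel genes and lists were chosen with earlier results of these data known. Of the 34 channel genes 2, and 1 marker gene, are not reported here: they stayed in the fit and are left out of every count and summed level. Markers of cholinergic neurons, endothelium and choroid plexus held no call against untreated. Those of thalamic neurons (Slc17a6), oligodendrocyte precursors (Gpr17) and astrocytes (Gfap) held 1 call each with paraquat, and those of astrocytes (Gja1) and microglia (Tmem119) 1 each with TiO2.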

Additional observations from a re-analysis of the deposited data

Results flagged for a closer look

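The interaction, tested in limma over all 4 groups, was past the threshold for 10 channel genes, 4 of which held in all 28 alternatives. It uses the same 4 untreated libraries as the comparisons of single exposures with untreated pups. Direct limma comparisons of the mixture with paraquat and with TiO2 called 0 of 32 channel genes each. The causes of the interaction were not tested. The labels give no dose, so less of each agent in the mixture and an effect of one agent on the other cannot be told apart. The log2 values were 0.39 for Scn2a, 0.40 for Cacna1e, 0.72 for Cacna2d1, -0.62 for Cacna2d2 and 0.62 for Cacna2d3. They were -0.58 for Cacnb1, -0.47 for Cacng2, -0.62 for Cacng5, -0.85 for Cacng7 and -0.61 for Cacng8.

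In 3 of 96 groups of 4 libraries examined, 1 library stood apart from the other 3, where chance gives about 1 in 20. Cacna1e was 4042 in control 2 and 4630 to 4689 in the other untreated libraries. Cacna2d3 was 1618 in TiO2 3 and 1998 to 2051 in the other TiO2 libraries. Cacng8 was 132 in control 1 and 170 to 175 in the other untreated libraries.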

How the results depend on the processing

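Of the 22 channel gene results named as called, 8 held in every alternative run: Cacna2d3 and Cacng7 with paraquat, Cacnb1 and Cacng7 with TiO2, and the interactions of Cacna2d1, Cacna2d3, Cacng2 and Cacng7. With the partner genes there were 30 such results and 710 values under alternatives, of which 609 kept the call, 101 lost it and 0 reversed. The count with paraquat, 5, was 8 in edgeR, 9 in DESeq2, 9 in voom, 8 with a mean of at least 50, 8 with the length trend removed, and 2 to 9 with 1 library left out. With TiO2, 7 became 5 with the GC trend removed, 5 with the replicate block and GC, and 2 to 8 with 1 library left out. With the mixture, 0 became 1 with GC, 1 with the block and GC, 1 in a fit of the groups compared, and stayed 0 with any 1 library left out. Mixture against paraquat, 0, was 3 in DESeq2 and 0 to 1 with 1 library left out (1 without paraquat 2, Cacna2d2). Paraquat against TiO2 was 0 to 1 (1 without TiO2 3, Cacna2d3), and mixture against TiO2 stayed 0. The interaction, 10, became 6 with GC, 6 with the block and GC, and 6 to 10 with 1 library left out. Over all genes the interaction calls went from 1832 to 1114 with GC and to 1187 with the block and GC. The causes were not tested.

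Partner genes with paraquat, 7, were 4 with GC and 2 to 6 with 1 library left out (2 without paraquat 1 or paraquat 3, 3 without control 1). With TiO2, 3, they were 8 in DESeq2, 5 with the total without mitochondrial genes, and 1 to 7 (1 without TiO2 2, 7 without TiO2 4). With the mixture, 0, they were 1 in DESeq2, 1 with TMM scaling, 1 with a mean of at least 50, 1 with the replicate block, 2 with the block and GC, 1 in the fit of the groups compared, and 0 to 1 with 1 library left out (1 without control 3). The causes were not tested.

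Deviations from the group means had a median correlation of -0.002 (-0.186 to 0.271) between same-numbered libraries of different groups. Between other libraries of different groups it was -0.016 (-0.338 to 0.337). Of the 15 libraries, 4 correlated best with their own number. Whether the number marks a shared batch was not tested. With the replicate block, 7 channel genes were called with paraquat, 7 with TiO2, 0 with the mixture and 9 for the interaction. Over all genes the block called 1482, 1354, 290 and 1768, against 1617, 996, 185 and 1832 without it. Standard errors against untreated were 0.27 to 0.31 for Cacna2d4 and Scn11a, the lowest genes by level per kilobase, and 0.26 to 0.28 for Scn9a, which was higher.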
